A study of Mus musculus with 8 samples.

Results

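Stromal cytokines that act on blood and osteoclast lineages were followed through 10 genes, chosen by symbol: Il7, Il15, Flt3l, Csf1, Il34, Tslp, Thpo, Tnfsf11, Tnfrsf11b and Tnfsf13b. All 10 were found by their Ensembl identifiers among the 52636 genes of the deposited table, and 9 of them had a count in every library, the exception being Thpo. RNA came from mesenchymal stem/progenitor cells (MSPCs) of the bone marrow, sorted for PDGFRα and for a GFP reporter of Kitl (SCF), an allele that both groups carried, after exclusion of cells with CD45, Ter119, CD31 or CD144. The paper also uses this allele to lower SCF. It reports that cKO mice heterozygous for the allele had membrane-bound SCF at the wild-type level and physiological numbers of hematopoietic stem cells. The 4 CTL mice were Flk2-cre+ Cxcr4fl/+ and the 4 cKO mice Flk2-cre+ Cxcr4fl/fl, all C57BL/6, with an age of 6 weeks in the labels and an older range in the study's methods. Flk2-cre, a transgene on the Y chromosome, acts in hematopoietic progenitors, so that the sorted cells themselves were not the target of the deletion and the comparison asked whether niche cells differ when the hematopoietic cells around them lack Cxcr4. Each library held the cells of 1 mouse.

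MSPCs, also known as CXCL12-abundant reticular cells, make soluble and membrane-bound factors on which neighboring blood cells depend. IL-7 and TSLP act on lymphoid progenitors, IL-15 on NK cells, FLT3 ligand on multipotent and dendritic cell progenitors, CSF1 and IL-34 on the shared receptor CSF1R of monocytes and macrophages, and thrombopoietin (Thpo) on megakaryocytes and stem cells. RANKL (Tnfsf11) drives osteoclast formation through RANK, and osteoprotegerin (Tnfrsf11b, OPG) is a soluble decoy receptor for it. BAFF (Tnfsf13b) is a survival factor for B cells.

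Total counts ranged from 31047344 to 38216877 per library, and 18366 to 20684 genes had a count. All 10 MSPC markers examined were detected in every library, with a summed level of 53550 to 65870 CPM (counts scaled to the same library total) in CTL and 54850 to 66620 in cKO. Cxcr4 had 4 to 19 counts in CTL and 0 to 12 in cKO, which in niche cells does not check the genotype labels. The sample titles carry numbers that fall into 26 to 32 (CTL2, CTL4, cKO2, cKO4) and 67 to 86 (CTL1, CTL3, cKO1, cKO3). The labels do not say what these numbers mean. Each range holds 2 libraries of each genotype.

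The cytokine genes spanned a wide range of levels in MSPCs. Levels are given in CPM scaled by TMM within a gene, and in RPKM (CPM divided by kilobases of exon) between genes. Per length, Il34 stood first with 234.6 ± 28.2 RPKM and Csf1 second with 188.3 ± 20.5 RPKM (SD, n = 8). Tnfsf11 followed at 69.5 ± 30.8 RPKM, Il7 at 33.7 ± 10.01 RPKM and Il15 at 16.3 ± 4.26 RPKM. The other members were low, with Flt3l at 3.51 ± 0.486 RPKM, Tnfrsf11b at 2.60 ± 0.610 RPKM, Tslp at 2.29 ± 0.801 RPKM and Tnfsf13b at 0.978 ± 0.488 RPKM. Thpo was last with 0 to 9 counts per library.

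**Figure D1:**
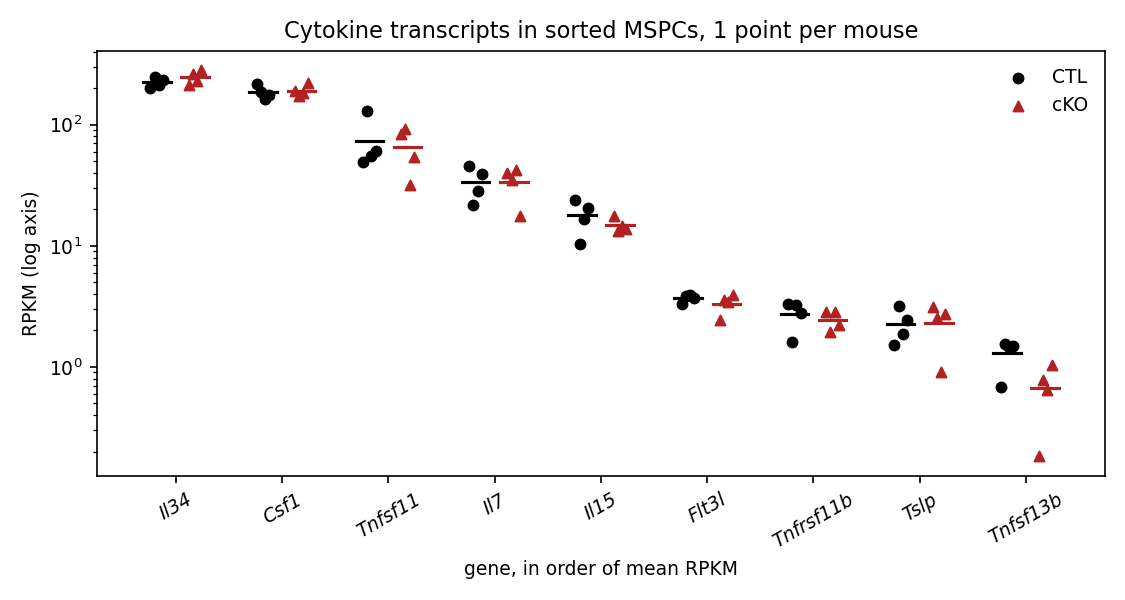
RPKM of 9 cytokine genes (log axis) in each library, with CTL as circles, cKO as triangles and the mean of each group as a line. Il34 and Csf1 lie above all other members in every library, and the CTL and cKO points overlap for each gene.

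Neighbors in this order were compared within libraries by an exact two-sided sign-flip permutation test of their log2 RPKM ratio over the 8 libraries, whose smallest possible p is 0.0078, with Benjamini-Hochberg adjustment over the 9 neighbor pairs. Of the 9 pairs, 8 differed beyond the spread between libraries. Il34 exceeded Csf1 by 1.24-fold per length, in 7 of 8 libraries (adjusted p = 0.0234, exact sign-flip test). Csf1 exceeded Tnfsf11 by 2.92-fold in 8 of 8 (adjusted p = 0.0141, exact sign-flip test), and Tnfsf11 exceeded Il7 by 1.99-fold in 7 of 8 (adjusted p = 0.0301, exact sign-flip test). The pair that did not pass was Tnfrsf11b and Tslp, where Tnfrsf11b was the higher in 4 of 8 libraries (p = 0.469, exact sign-flip test). With the longest annotated transcript as the length, 6 of 9 pairs passed. Among those that did not were Il34 over Csf1 (1.07-fold, adjusted p = 0.264) and Tnfsf11 over Il7 (1.71-fold, adjusted p = 0.0703, each by exact sign-flip test). The test covers the spread between libraries and not the choice of length. Without division by length 6 of 9 pairs passed, and Csf1 lay above Il34 (adjusted p = 0.0117, exact sign-flip test). Il7 then lay above Tnfsf11 and Tnfsf13b above Tslp, but neither pair passed (adjusted p = 0.352 and 0.0804, exact sign-flip test).

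None of the 9 members with a count in every library passed the test between genotypes. By the quasi-likelihood test of edgeR, adjusted by Benjamini-Hochberg over 14598 genes, 0 of 9 passed an adjusted p of 0.05 and 0 of 9 had an unadjusted p under 0.05, beside 0 of the 14598 genes (0.0%) and 4.43% of them. DESeq2 also called 0 members, beside 0.158% of all genes with the Wald test, 0.151% with the likelihood ratio test and 0.322% with the latter and the title number range as a term. Limma-voom called 0 members, beside 0.0% of all genes. Tnfsf13b was the 1 member at an unadjusted p under 0.05 in each of these 4 fits, where 5.19%, 5.08%, 6.07% and 4.58% of all genes were. Of the 9 members 4 had a positive and 5 a negative log2 fold change, with a median of -0.14 beside -0.0013 over all genes tested. CTL and cKO values overlapped for all 10 members, where 2.62% of the genes tested had groups that do not overlap. The 95% intervals of 8 members, each for a single gene without adjustment, lay inside a log2 fold change of -1 to 1. Those of Tnfsf11 (-0.99 to 0.67) and Tslp (-0.90 to 0.99) only just did, and the interval of Tnfsf13b reached beyond it. In bulk RNA, fewer cells of a type and less RNA per cell cannot be told apart.

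**Figure D2:**
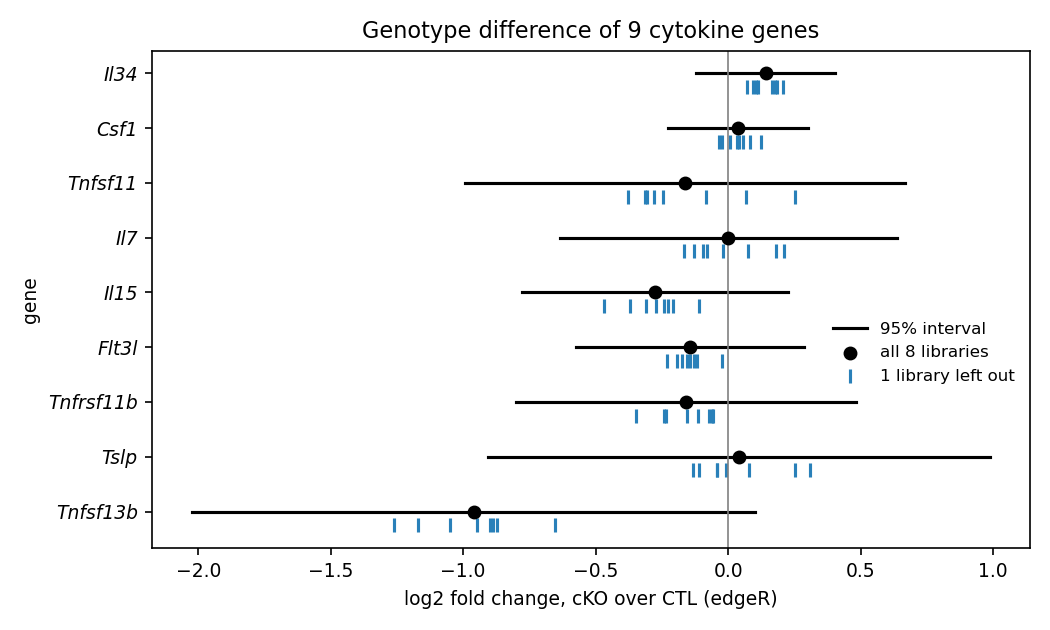
Log2 fold change of 9 cytokine genes, cKO over CTL, from edgeR, with points for all 8 libraries, lines for the 95% interval and ticks for the 8 fits that each leave out 1 library. All intervals include 0, and that of Tnfsf13b is the widest, from -2.02 to 0.10.

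Among the lymphoid factors, Il7 (chr3:7569994-7613760 on GRCm38, minus strand) held 257, 124, 161 and 220 CPM in CTL1 to CTL4 and 225, 198, 239 and 100 CPM in cKO1 to cKO4. CTL2 and cKO4 were the lowest of their groups, and the group means were 190.5 ± 59.7 and 190.7 ± 62.7 CPM (SD, n = 4 each). Its log2 fold change was 0.0011 (standard error 0.29, 95% interval -0.64 to 0.64, adjusted p = 1.00 from edgeR). Gm16685, annotated on the opposite strand at coordinates that overlap Il7, had 652 to 1730 counts beside 3854 to 8232 for Il7. Whether the counting used strand is not given in the sources used here, so that reads in any shared exons could belong to either.

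Il15 (chr8:82331632-82403222, minus strand), whose product is presented to NK cells on IL-15 receptor α, held 53.5, 23.6, 37.9 and 46.2 CPM in CTL1 to CTL4. The cKO libraries held 39.5, 29.7, 33.2 and 30.9 CPM. The cKO values lay within the wider CTL range, from CTL2 at the bottom to CTL1 at the top. The log2 fold change was -0.28 (standard error 0.23, 95% interval -0.78 to 0.23, adjusted p = 0.999 from edgeR). Without CTL2 it was -0.47 (unadjusted p = 0.0176, adjusted p = 0.999 from edgeR), and without CTL1 it was -0.11.

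Tslp (chr18:32815383-32819797, plus strand), a cytokine related to IL-7, had 62, 139, 80 and 121 counts in CTL1 to CTL4 and 135, 119, 39 and 139 counts in cKO1 to cKO4. The cKO3 library stood below the other 7. The log2 fold change was 0.042 (standard error 0.43, 95% interval -0.90 to 0.99, adjusted p = 0.999 from edgeR). Leaving out cKO3 gave 0.31.

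Flt3l (chr7:45129788-45136432, minus strand) was steady, at 12.8, 14.9, 15.2 and 14.3 CPM in CTL1 to CTL4 and 9.49, 13.7, 13.3 and 15.2 CPM in cKO1 to cKO4. Only cKO1 lay below 12 CPM. The log2 fold change was -0.14 (standard error 0.19, 95% interval -0.57 to 0.29, adjusted p = 0.999 from edgeR), and -0.025 without cKO1. Gm45713 overlaps Flt3l on the same strand and had 0 counts in all 8 libraries, so that reads in any shared exons are uncertain.

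Of the CSF1R ligands, Csf1 (chr3:107741048-107760469, minus strand) was the most abundant member by counts, ranking 95 among all genes by mean CPM. It held 1153, 983, 865 and 923 CPM in CTL1 to CTL4 and 995, 910, 966 and 1158 CPM in cKO1 to cKO4. The highest library of each group, CTL1 and cKO4, differed little, and the log2 fold change was 0.038 (standard error 0.12, 95% interval -0.23 to 0.30, adjusted p = 0.999 from edgeR). It was -0.036 without cKO4, -0.022 without CTL3 and 0.12 without CTL1. Il34 (chr8:110741829-110805924, minus strand), rank 242, held 392, 481, 414 and 461 CPM in CTL1 to CTL4 and 413, 517, 446 and 553 CPM in cKO1 to cKO4. Its log2 fold change was 0.14 (standard error 0.12, 95% interval -0.12 to 0.40, adjusted p = 0.999 from edgeR), and 0.070 without cKO4. For these 2 genes the libraries gave the narrowest intervals of the members. Opposite to Il34, Gm15894 and Gm15895 had 105 to 522 and 10 to 73 counts.

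Tnfsf13b (chr8:10006467-10039072, plus strand) had the largest difference between genotypes of the members, though it did not pass the test. Its counts were 146, 344, 323 and 382 in CTL1 to CTL4 and 41, 189, 145 and 274 in cKO1 to cKO4, which is 4.72, 10.55, 10.03 and 10.22 CPM against 1.26, 5.39, 4.46 and 7.13 CPM. CTL2, CTL3 and CTL4 lay above all cKO libraries, and CTL1 lay among them. At each replicate number the cKO library lay below the CTL library, though the labels do not name these as pairs. The cKO mean was 0.514 of the CTL mean in the fit (95% interval 0.246 to 1.07), with a log2 fold change of -0.96 (standard error 0.48, unadjusted p = 0.0716, adjusted p = 0.999 from edgeR). An exact two-sided permutation test of its log2 CPM, 4 against 4, gave p = 0.0857, where the smallest p allowed is 0.0286. Within title numbers 26 to 32 the difference of mean log2 CPM was -0.74 and within 67 to 86 it was -1.51.

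The size of this difference depended on single libraries. Without CTL1 the log2 fold change of Tnfsf13b was -1.17 (unadjusted p = 0.0379) and without cKO4 -1.26 (unadjusted p = 0.0365), and without cKO1, the lowest library, it was -0.65 (unadjusted p = 0.0949, each from edgeR). Over all 19 alternatives to the edgeR fit the sign was kept, and the smallest adjusted p, from DESeq2 with the title number range as a term, was 0.489. A list of 20 hematopoietic markers, B lineage genes among them, summed to 64.4 to 191 CPM in CTL and 127 to 198 CPM in cKO. Of the 10 hematopoietic markers tested, 10 had a positive log2 fold change (median 0.44, beside -0.0013 over all genes tested). Of these markers 0 were called, beside 0 of all 14598 genes. The part of these cells in the level of Tnfsf13b was not tested.

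Thpo (chr16:20724454-20734511, minus strand) had 5, 8, 0 and 3 counts in CTL1 to CTL4 and 4, 0, 0 and 9 counts in cKO1 to cKO4. No difference was detectable at this depth, with a log2 fold change of -0.42 ± 1.66 (standard error) and an adjusted p of 1.0 from edgeR without the filter, where 1 of 25681 genes (0.00389%) was called and Thpo was not. A count of 0 allows up to 3 counts, counting error only. Chrd overlaps Thpo on the opposite strand and had 94 to 243 counts, so that even these few reads are uncertain. Alb, Apoa1 and Ttr, markers of hepatocytes, the main source of thrombopoietin in the body, were at 0 in all libraries.

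The RANKL gene Tnfsf11 (chr14:78277445-78308043, minus strand) was the most variable member with a mean above 10 CPM, with a coefficient of variation of 44.4% over the 8 libraries, beside 10.9% for Csf1. The bases before the start of both genes are shown because these are the extremes among such members. They are the 250 bases upstream of the RefSeq start on GRCm38.p6, read on the gene's strand, at chr14:78308044-78308293 for Tnfsf11 and chr3:107760470-107760719 for Csf1. Capitals mark TATAA and its reverse complement TTATA, which overlap here.
Tnfsf11: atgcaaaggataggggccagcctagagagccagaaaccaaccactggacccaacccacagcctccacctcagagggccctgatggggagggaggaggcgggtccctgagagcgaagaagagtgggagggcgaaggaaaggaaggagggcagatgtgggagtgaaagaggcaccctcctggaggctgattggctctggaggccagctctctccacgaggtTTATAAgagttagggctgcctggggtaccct
Csf1: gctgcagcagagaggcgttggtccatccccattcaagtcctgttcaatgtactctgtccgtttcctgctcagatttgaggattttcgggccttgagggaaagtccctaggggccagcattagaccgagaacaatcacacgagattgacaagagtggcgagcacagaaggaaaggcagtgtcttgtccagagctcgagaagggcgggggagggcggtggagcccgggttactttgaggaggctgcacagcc
Tnfsf11 holds TATAA with its first base 30 bases before the start, and Csf1 holds it on neither strand. Among the 32851 promoters of the same table, 22.8% hold TATAA on either strand of the 250 bases, and 3.31% hold it on the gene's strand from 40 to 21 bases upstream. Tnfsf11 has 4 CpG in this window and Csf1 has 10, where the median promoter has 6. Only 5 members, Csf1, Flt3l, Tnfsf13b, Tnfsf11 and Thpo, were in the table, and the matches describe letters only.

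Tnfsf11 held 109.5, 289, 123 and 135 CPM in CTL1 to CTL4 and 187, 207, 71.1 and 121.5 CPM in cKO1 to cKO4. CTL2 was the highest and cKO3 the lowest of the 8. The log2 fold change was -0.16 (standard error 0.37, 95% interval -0.99 to 0.67, adjusted p = 0.999 from edgeR). It was 0.25 without CTL2 and 0.067 without cKO3, so that its sign rested on single libraries. Tnfrsf11b (chr15:54250619-54278484, minus strand) held 9.32, 4.57, 9.13 and 7.84 CPM in CTL1 to CTL4 and 7.99, 5.45, 7.96 and 6.24 CPM in cKO1 to cKO4. Here CTL2 was the lowest library. Its log2 fold change was -0.16 (standard error 0.29, 95% interval -0.80 to 0.48, adjusted p = 0.999 from edgeR). It was -0.35 without CTL2 and -0.055 without CTL1.

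Every library had more reads of RANKL than of its decoy receptor. The ratio of Tnfsf11 to Tnfrsf11b counts was 11.7, 63.0, 13.5 and 17.2 in CTL1 to CTL4 and 23.3, 38.0, 8.92 and 19.4 in cKO1 to cKO4, a 7.07-fold span from cKO3 to CTL2. The group means were 4.35 ± 1.11 in CTL and 4.31 ± 0.869 in cKO on the log2 scale (SD, n = 4 each), and differed by -0.040 (p = 0.971, exact two-sided permutation test). The difference was 0.50 without CTL2 and 0.34 without cKO3. Between title number ranges the mean log2 ratio was 4.90 ± 0.875 in 26 to 32 and 3.75 ± 0.584 in 67 to 86 (p = 0.0857, exact two-sided permutation test), and the genotype difference was -0.28 within the former and 0.20 within the latter.

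**Figure D3:**
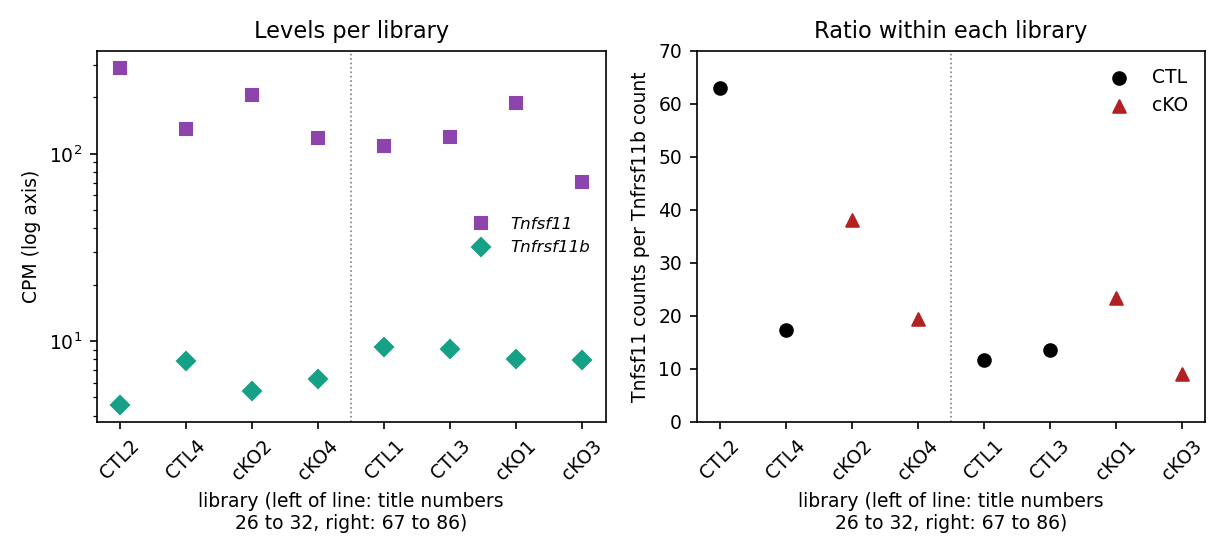
Left, CPM of Tnfsf11 and Tnfrsf11b (log axis) in each library. Right, counts of Tnfsf11 per count of Tnfrsf11b, with CTL as circles and cKO as triangles, and the dotted line parting title numbers 26 to 32 from 67 to 86. The ratio is highest in CTL2 (63.0) and lowest in cKO3 (8.92), and both genotypes spread over the range between.

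Osteoclast markers were checked beside these genes. Their summed level was 199 to 223 CPM in CTL and 195 to 245 CPM in cKO, almost all from Ctsk (186 to 241 CPM), a protease that mesenchymal cells also express. Acp5, with 56 to 270 counts, and Mmp9, with 25 to 331, were detected in all 8 libraries, and Calcr, Ocstamp, Dcstamp, Oscar and Atp6v0d2 were at 0 in all 8. Osteoblast and osteocyte markers summed to 8285 to 12190 CPM in CTL and 8897 to 14330 CPM in cKO, almost all from Ibsp (7756 to 13800 CPM). Col1a1, Phex and Sp7 averaged 358, 141 and 72.3 CPM. Bglap, Bglap2, Ifitm5, Mepe and Dmp1 were low, at means of 1.67, 0.810, 0.602, 2.12 and 7.18 CPM, and Sost was at 0. The osteocyte gene Mepe was at 2.85 ± 1.08 CPM in CTL and 1.39 ± 0.447 CPM in cKO (log2 fold change -1.04, unadjusted p = 0.0292, adjusted p = 0.999 from edgeR). It had only 27 to 126 counts per library. Dmp1 and Phex, on the same list, lay the other way, at log2 fold changes of 0.32 and 0.21. Of the 7 genes of this list that were tested, 4 were positive and 3 negative. Their median was 0.20, beside -0.0013 over all genes tested. The endothelial list lay at 5.81 to 9.69 CPM in CTL and 5.62 to 10.8 CPM in cKO. Smooth muscle and pericyte markers summed to 25.6 to 67.9 CPM in CTL and 13.4 to 44.7 CPM in cKO, with Rgs5 at a log2 fold change of -1.20 (unadjusted p = 0.0412, adjusted p = 0.999 from edgeR). Their part in the values of the cytokine genes was not tested.

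Values of 2 members lay apart between the title number ranges. Between 67 to 86 and 26 to 32, with genotype as a term, edgeR called 0 of 9 members, beside 2 of 14598 genes (0.0137%), and 1 of 9 members had an unadjusted p under 0.05, beside 11.6% of all genes. That member was Il34, at 503 ± 40.6 CPM in 26 to 32 and 416 ± 22.2 CPM in 67 to 86 (SD, n = 4 each), with a log2 fold change of -0.27 (standard error 0.075, unadjusted p = 0.00598, adjusted p = 0.251 from edgeR). Tnfrsf11b lay the other way, at 6.02 ± 1.39 CPM in 26 to 32 and 8.60 ± 0.723 CPM in 67 to 86 (log2 fold change 0.51, unadjusted p = 0.0688 from edgeR). For both genes the ranges did not overlap, as for 6.87% of the genes tested. The interaction of genotype with range was called by edgeR for 0 of 9 members (adjusted p = 1.00 for each), with 0 of 9 at an unadjusted p under 0.05, beside 0.0% and 3.44% of all genes.

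**Figure D4:**
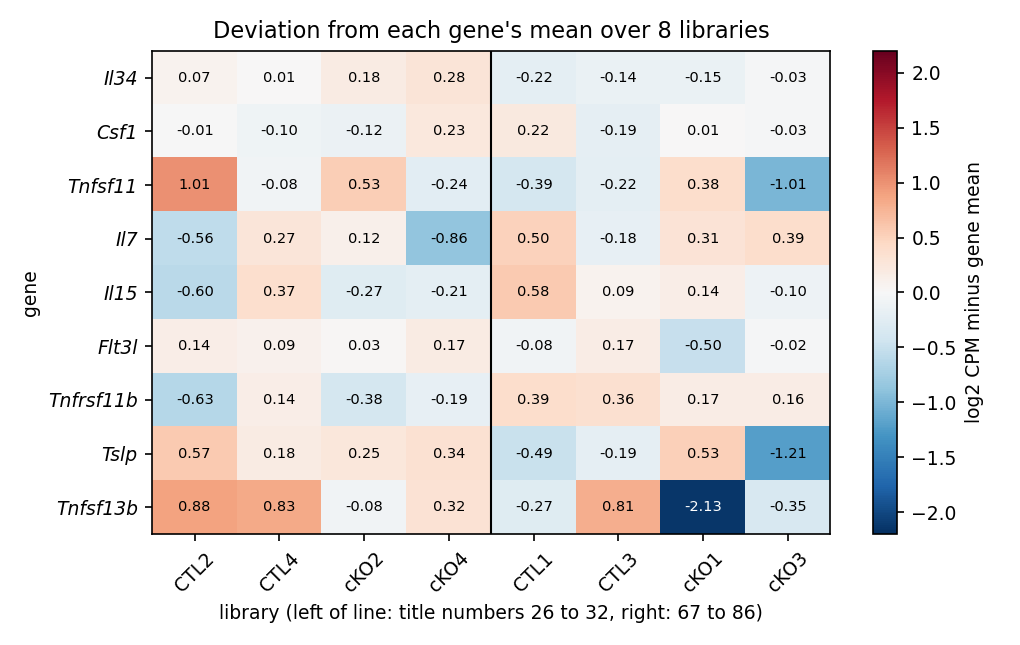
Log2 CPM of 9 cytokine genes in each library minus the gene's mean over the 8 libraries, with title numbers 26 to 32 left of the line and 67 to 86 right of it. Il34 is above its mean in all 4 libraries at left and below it in all 4 at right, and the darkest cell is Tnfsf13b in cKO1 (-2.13).

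Pairs of members were compared over the mice after the data were seen, and no pair passed the correction for their number. Over the 36 pairs of 9 members, 5 had an unadjusted permutation p under 0.05 for Pearson's r of log2 CPM and 0 an adjusted p under 0.05. Flt3l and Tnfsf13b had r = 0.957 (permutation p = 0.0025, adjusted p = 0.0527, n = 8 libraries) and a Spearman rho of 0.762 (permutation p = 0.0368), and without CTL1 and cKO1, the libraries farthest from the median of Flt3l, r was 0.771. Tslp and Tnfsf11 had r = 0.859 (permutation p = 0.0044, adjusted p = 0.0527) and rho 0.810 (permutation p = 0.0218), with r = 0.682 without CTL1 and cKO3. Il15 and Tnfrsf11b had r = 0.869 (permutation p = 0.0041, adjusted p = 0.0527) and rho 0.833 (permutation p = 0.0154), with r = 0.698 without CTL1 and CTL2. After centering within title number ranges these 3 values of r were 0.941, 0.799 and 0.884, and within genotypes 0.983, 0.863 and 0.870. Il34 and Tnfrsf11b had r = -0.757 (permutation p = 0.0311, adjusted p = 0.279) and rho -0.881 (permutation p = 0.0072), with r = -0.806 without CTL1 and cKO4 and r = -0.287 after centering within title number ranges, so that the relation was weak within them. Tnfsf11 and Tnfrsf11b had r = -0.712 (permutation p = 0.0464, adjusted p = 0.324), rho -0.619 (permutation p = 0.115) and r = -0.587 without CTL2 and cKO3.

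Of the members that averaged 10 CPM or more, the 3 with the widest range of log2 CPM were Tnfsf11, Il7 and Il15. The genes with the most similar profile over the 8 libraries to each were found among 9413 genes by the root mean square difference of centered log2 CPM. For Tnfsf11, with a range of 2.02, these were Gmeb2 (0.133), Rassf2 (0.194) and Ccn1 (0.223), where a flat profile would lie at 0.585. Il7, with a range of 1.36, was closest to St3gal4 (0.138), Tep1 (0.144) and Timm22 (0.190), beside 0.457 for a flat profile. Il15, with a range of 1.18, was closest to Prkd3 (0.118), Grb14 (0.122) and Ptchd1 (0.137), beside 0.352. All these genes were picked as the nearest of 9413 over 8 libraries, so that the flat profile is no measure of chance and likeness was not tested.

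Receptors of these cytokines ranged from undetected to high in the sorted cells. Of 16 genes on that list, which also held Tnfsf10, a further OPG ligand, 8 were tested and 0 were called, beside 0 of all 14598 genes. Their median log2 fold change was 0.0018, beside -0.0013 over all genes tested. Il7r and Tnfrsf17 had 0 counts in all 8 libraries, Tnfrsf11a had counts in 1 library, and Csf1r lay at 4.79 to 11.4 CPM. Lgr4, another gene on the list, lay at 44.2 to 66.3 CPM. Sdc1, a proteoglycan that binds IL-34, was high at 725 to 947 CPM, and Crlf2, the TSLP receptor chain, lay at 20.2 to 32.7 CPM although its partner Il7r was at 0. Among the low genes left out of the test, Tnfsf10 had 0 to 21 counts in CTL and 0 to 62 in cKO (adjusted p = 0.879 from edgeR without the filter). Tnfrsf13c, a BAFF receptor, had 0, 7, 21 and 0 counts in CTL1 to CTL4 and 0 in all 4 cKO libraries (adjusted p = 0.749 from edgeR without the filter). The largest differences among the 8 tested were Il15ra, at 3.24 ± 1.10 CPM in CTL and 4.64 ± 0.325 CPM in cKO (log2 fold change 0.52, adjusted p = 0.999 from edgeR), and Il2rg, the common γ chain, at 5.68 ± 2.19 and 4.08 ± 1.74 CPM (log2 fold change -0.48, adjusted p = 0.999 from edgeR).

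Of 23 other cytokine genes that act on blood cells, Kitl and Cxcl12 included, 10 were tested and 0 were called, beside 0 of all 14598 genes. Their median log2 fold change was 0.050, beside -0.0013 over all genes tested. Csf2, Csf3, Il3 and Il9 had 0 counts in all libraries. Il6, which the filter left out of the test and which is named after its values were seen, had 15, 29, 36 and 59 counts in CTL1 to CTL4 and 0 in all 4 cKO libraries. Its groups did not overlap (unadjusted p = 0.000269, adjusted p = 0.749 from edgeR without the filter). In that fit 1085 of 25681 genes had an unadjusted p under 0.05. The 2.62% of genes with groups that do not overlap covers only genes with a count in every library, which Il6 is not. The largest differences among the 10 tested were Tgfb1, at 28.8 ± 5.20 CPM in CTL and 40.1 ± 13.9 CPM in cKO (log2 fold change 0.48, unadjusted p = 0.0722, adjusted p = 0.999 from edgeR), and Ctf1, a gp130 cytokine, at 5.15 ± 1.07 and 3.52 ± 1.19 CPM (log2 fold change -0.55, adjusted p = 0.999 from edgeR).

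Genes through which stromal cells raise or restrain osteoclast support were all tested. Of these 15, 0 were called, beside 0 of all 14598 genes. Log2 fold changes were negative for 11 and positive for 4, with a median of -0.15 beside -0.0013 over all genes tested. Of the 15, 1 had an unadjusted p under 0.05 from edgeR, beside 4.43% of all genes. That gene was Il6st, the shared signal chain of the IL-6 family, at 544 ± 107 CPM in CTL and 364 ± 82.6 CPM in cKO (log2 fold change -0.58, unadjusted p = 0.0107, adjusted p = 0.999 from edgeR). The largest differences were Sema3a, an inhibitor of osteoclast formation, at 5.38 ± 2.09 and 3.40 ± 1.92 CPM (log2 fold change -0.66, adjusted p = 0.999 from edgeR), and Ptger2, a prostaglandin E2 receptor, at 5.58 ± 2.15 and 7.52 ± 0.959 CPM (log2 fold change 0.43, adjusted p = 0.999 from edgeR).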

How the data were processed

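MSPC RNA from 4 CTL and 4 cKO mice was sequenced in 8 poly(A) libraries. The authors aligned the reads to GRCm38 (mm10) with HISAT2, counted them with HTSeq, and deposited counts per gene without normalization. The methods normalize with DESeq2 and correct for a batch that the labels do not name. Symbols, coordinates and exon lengths came from GENCODE M21 on GRCm38, not the release of the methods, and 52489 of 52636 identifiers matched. All 8 value columns belonged to samples.

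Testing used edgeR 4.0.16 on the genes that every library detected (TMM, glmQLFit, glmQLFTest, Benjamini-Hochberg over 14598 genes, threshold 0.05) in R 4.3.3, without covariates. Intervals use the fit's degrees of freedom. For correlations and likeness, log2 CPM had a prior count of 2, and ratios used 0.5 added to each count. Permutation tests enumerated all 70 assignments, 256 sign patterns or 40320 orders. Alternatives were other scalings and filters, DESeq2 1.42.0, limma-voom (limma 3.58.1), the title number range as a term, the replicate block and each library left out. The fits were tested on simulated data.

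The members and lists were chosen with earlier results of these data known. List genes named are those with the largest log2 fold change in each direction per list. Il6st, Rgs5, Mepe, Dmp1, Phex, Il6, Tnfsf10, Tnfrsf13c, the correlations, and receptors and markers named by level were added after their values were seen. Total counts were 31047344 to 38216877 per library, and standard errors include the spread between mice. The labels call the samples biological replicates. Single-cell data were not analysed here.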

Additional observations from a re-analysis of the deposited data

Results flagged for a closer look

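In 2 of the 20 groups of 4 libraries examined, which were 9 members and the Tnfsf11 to Tnfrsf11b ratio in each genotype, a single library stood apart from the other 3 by more than Dixon's 95% critical value of 0.829. Chance gives about 1 such group in 20.

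In CTL, CTL1 was low for Tnfsf13b, with 146 counts beside 323 to 382 in the others, and its gap was 0.938 of the group's range. Without CTL1 the log2 fold change of Tnfsf13b was -1.17 (adjusted p = 1.00, edgeR). In cKO, cKO3 was low for Tslp, with 39 counts beside 119 to 139 in the others, and its gap was 0.838 of the range. The same cKO3 library had the lowest Tnfsf11 of the 8. CTL1 had the smallest total count of the 8 libraries, 31047344, and cKO3 had 33070784. The part of depth was not tested.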

How the results depend on the processing

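In all 19 alternatives 0 members were called between genotypes, and the median log2 fold change of the members stayed negative, from -0.15 to -0.063. The signs of Il15, Flt3l, Il34, Tnfrsf11b and Tnfsf13b were kept in all 19. Values near 0 changed sign. For Il7 the log2 fold change was -0.0014 with DESeq2's Wald and likelihood ratio tests, -0.030 with the latter and the title number range, -0.027 with that range in edgeR, -0.0031 with filterByExpr, -0.0015 with RLE scaling and -0.024 with limma-voom. Tslp was at -0.040 with limma-voom. With 1 library left out, Il7 ranged from -0.17 to 0.21, Csf1 from -0.036 to 0.12, Tslp from -0.13 to 0.31, Tnfsf11 from -0.38 to 0.25 and the log2 ratio of Tnfsf11 to Tnfrsf11b from -0.35 to 0.50. With 1 library left out the order of levels was the same, with 6 to 8 of its 9 neighbor pairs past the threshold. With the longest transcript or without length the order was another, and 6 of its 9 pairs passed. With the replicate number as a block, Il7 was at -0.011 and Tslp at -0.038, with 0 members called. Tnfsf13b was at -1.12 (standard error 0.31 against 0.48 without the block, unadjusted p = 0.0102, adjusted p = 0.880 from edgeR). Same-numbered CTL and cKO libraries correlated in their deviations at 0.131, 0.176, 0.0844 and 0.0572. Numbers 1 to 3 matched best with their own number and number 4 did not. The labels do not name pairs, and these correlations cannot decide whether same-numbered libraries were paired. The main fit did not use the replicate number. DESeq2's Wald test called 23 genes, its likelihood ratio test 22, and 47 with the title number range, none of them a member, beside 0 in edgeR. Without the filter or with filterByExpr 1 gene was called. Counts were lowest for Thpo, at 0 to 9 per library.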

Other observations

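By the same measure of likeness, applied to Tnfsf13b after its values were seen, the genes closest to it over the 8 libraries were Cercam (root mean square difference 0.367), Tmem229b (0.386) and Vipr2 (0.415), where a flat profile would lie at 0.934 and Tnfsf13b had a range of 3.01 in log2 CPM. Here too the flat profile is no measure of chance. Il2rg, the common γ chain, had 78 counts in CTL1 and 48 in cKO1, beside 157 to 233 in the other 6 libraries, and CTL1 and cKO1 were also the lowest of their genotypes for Tnfsf13b and Flt3l.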
